A study of Mus musculus with 5 samples.

Results

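Messenger RNAs of the cytosolic ribosomal proteins were measured in mouse aortas, in db/db homozygotes and db/+ heterozygotes for a mutation of Lepr, which encodes the leptin receptor. The set was made of every probe set of the array whose only annotated gene symbol was Rpl or Rps followed by a number, or Rplp0, Rplp1, Rplp2 or Rpsa, with the Rps6k kinases left out. It held 101 of the 22626 probe sets and 49 of the 12393 named genes, of which 46 probe sets (26 genes) belonged to the large subunit and 55 (23 genes) to the small subunit. RefSeq lists 2 of these genes, Rps4l and Rps15a-ps6, as transcribed pseudogenes. A further 102 probe sets listed a ribosomal protein gene together with other symbols and stand outside the set because they name no single gene.

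The db/db group held 3 arrays (replicates 1, 2 and 3) of male Lepr db/db mice, homozygotes in which the long receptor isoform cannot be made, so that obesity and diabetes develop. The db/+ group held 2 arrays (replicates 2 and 3) of male Lepr db/+ heterozygotes. Both came from the Jackson Laboratory colony BKS.Cg-m +/+ Lepr db/J. The m in that name is the misty coat colour allele, carried in this stock on the chromosome opposite to db, and the labels do not give the m genotype of each group. Ages ran between 16 and 20 weeks, on a regular chow diet. Each array was 1 pool of 6 aortas stripped of adventitia and surrounding fat, so p-values measure the spread between pools. Replicate 1 of the db/+ pools was not analysed here. In bulk tissue, fewer cells of a type cannot be told apart from less RNA per cell.

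A ribosome joins a small subunit, which reads the messenger RNA, and a large subunit, which links amino acids into protein. Each subunit is a core of ribosomal RNA covered by many small proteins that are needed in near equal numbers. Genes for these proteins are among the most active in every cell. Most of their messengers start with a C followed by a run of pyrimidines, the 5' TOP tract. Through this tract the mTOR kinase can change how much of a messenger is translated, even where the messenger's amount stays the same. The many processed pseudogenes of the family make its probes prone to read more than 1 locus.

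Promoter windows were read for that pyrimidine tract and for short motifs. RefSeq (GRCm38.p6) gave a promoter for 42 of the 49 genes. The annotated start base was C or T in 21 of the 42, and a gene with another base there counted as without a run. A run of at least 8 bases of C or T that covered the annotated start was found in 12 of the 42 (28.6%), against 4.06% of 6652 other genes tested here and 3.81% of all 27025 genes in the table. Windows of 250 bases before to 50 after the start were searched on both strands for short motifs. CTTCCG, the core of sites for ETS factors, was present in 69.0% of the 42, in 31.9% of the other genes tested and in 17.2% of all genes. CTTTCC was present in 45.2%, 26.8% and 26.3%, the YY1-type sequence AAGATGGC in 7.14%, 4.98% and 2.88%, and TATAAA in 11.9%, 7.52% and 14.2%. Each motif was counted apart, overlaps included, and a match describes the letters of the window only.

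The windows printed run from 60 bases before the start to 20 bases from the start on, 80 bases in all, in the direction of the gene. The first 3 large subunit and first 3 small subunit genes are those with the longest run in their subunit, from 21 bases in Rpl7a to 10 bases in Rps6. They are followed by the paralog pairs Rps27 and Rps27l, and Rpl22 and Rpl22l1, to show the start of each copy. Capitals mark the unbroken run of C and T over the start, and a sequence without capitals has a base other than C or T at the start.
Rpl7a, chr2:26910747-26910826, plus strand: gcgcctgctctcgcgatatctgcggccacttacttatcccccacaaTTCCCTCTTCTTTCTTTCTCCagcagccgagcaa
Rpl27a, chr7:109519135-109519214, plus strand: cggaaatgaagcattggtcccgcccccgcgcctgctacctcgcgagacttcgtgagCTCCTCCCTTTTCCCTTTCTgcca
Rpl35, chr2:39005112-39005191, minus strand: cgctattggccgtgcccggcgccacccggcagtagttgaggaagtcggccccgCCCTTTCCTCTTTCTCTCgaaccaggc
Rps10, chr17:27635225-27635304, minus strand: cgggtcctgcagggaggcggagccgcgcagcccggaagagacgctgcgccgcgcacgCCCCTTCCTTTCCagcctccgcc
Rps18, chr17:33955646-33955725, minus strand: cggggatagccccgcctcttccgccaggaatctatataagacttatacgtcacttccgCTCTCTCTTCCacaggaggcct
Rps6, chr4:86857348-86857427, minus strand: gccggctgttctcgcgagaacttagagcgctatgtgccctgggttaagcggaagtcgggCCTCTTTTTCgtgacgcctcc
Rps27, chr3:90213629-90213708, minus strand: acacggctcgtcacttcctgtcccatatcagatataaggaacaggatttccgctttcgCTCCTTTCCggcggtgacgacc
Rps27l, chr9:66946026-66946105, plus strand: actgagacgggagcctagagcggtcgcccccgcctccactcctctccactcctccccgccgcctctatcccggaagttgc
Rpl22, chr4:152325666-152325745, plus strand: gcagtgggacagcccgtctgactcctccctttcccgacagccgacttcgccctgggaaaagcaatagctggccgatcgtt
Rpl22l1, chr3:28805448-28805527, plus strand: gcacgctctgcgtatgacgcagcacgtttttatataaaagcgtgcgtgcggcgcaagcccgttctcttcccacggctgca
The parent gene Rps27 has a run of 9 bases over its start, while its copy Rps27l and both genes of the Rpl22 pair have none at the annotated base.

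Median signals lay between 59.0 and 61.5, the actin 3'/5' signal ratio between 1.14 and 1.34, and the correlation between arrays across probe sets tested ran between 0.951 and 0.976. The smooth muscle markers Myh11, Acta2 and Tagln were bright on every array (Myh11 between 3366.5 and 3916.4), and the 10 smooth muscle markers summed to 32455.5, 30307.1 and 26906.1 in db/db and to 23953.3 and 27157.8 in db/+. The fat markers Ucp1 and Adipoq were also present on every array. Ucp1 had 2136.2, 4334.5 and 3444.7 in db/db and 2503.4 and 2665.3 in db/+. Adipoq had 1393.8, 2062.2 and 2010.0 in db/db and 2790.7 and 2121.6 in db/+. White fat markers (6 of 8 measured) summed to 5073.3, 8762.6 and 6781.3 in db/db and to 8205.2 and 7472.3 in db/+, with 1 called. Among them Lep had 23.4, 12.0 and 35.0 in db/db and 301.6 and 263.9 in db/+. Retn went the other way, with 270.0, 404.3 and 273.1 in db/db and 213.6 and 219.8 in db/+. For Fabp4 and Cidec the genotypes overlapped. Brown fat markers (8 of 8) summed to 6040.9, 11982.9 and 10604.9 in db/db and to 8134.8 and 9580.2 in db/+. Of 12 lymphocyte markers 10 were measured, and they summed to 1141.0, 601.0 and 515.0 in db/db and to 465.4 and 462.6 in db/+, highest in db/db replicate 1. Summed macrophage markers (9 of 10 measured) were 2136.4, 1839.6 and 2196.6 in db/db and 3174.6 and 3913.4 in db/+, and endothelial markers (8 of 8) 1209.7, 1435.7 and 1616.2 in db/db and 2119.1 and 1950.4 in db/+. Hepatocyte markers (9 of 10 measured) summed to 1775.9, 1854.9 and 1608.9 in db/db and to 3133.3 and 4127.7 in db/+, with 2 called. Cardiac muscle markers (10 of 10) summed to 684.5, 4148.5 and 908.6 in db/db and to 1686.5 and 1275.1 in db/+, highest in db/db replicate 2. The part of cell makeup in the ribosomal values was not tested. Lepr itself had 81.2 ± 9.67 in db/db and 65.4 ± 8.70 in db/+ (SD, n = 3 and 2), which does not check the labels, since the db mutation changes splicing of its transcript. Over the 13574 probe sets with a mean signal above 40.6, limma at an adjusted p under 0.05 placed 13 lower and 0 higher in db/db (539 higher and 569 lower at an unadjusted p under 0.05).

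Ribosomal protein messengers differed little between aortas of db/db and db/+ mice, and none of their differences passed the test. Of the 101 probe sets, 81 (45 genes) were bright enough to be tested, and 0 passed limma's test at an adjusted p under 0.05, where 0.0958% of all probe sets tested passed. At an unadjusted p under 0.05 there was 1, Rpl14, lower in db/db, against 8.16% of all probe sets tested (3.97% higher and 4.19% lower). The smallest adjusted p was 0.61. The size of the log2 change, taken without its sign, had a median of 0.085 over the 81 probe sets. It was 0.15 over all 13574 probe sets tested and 0.13 over the 749 other probe sets with a mean signal above 1000. Per gene the median size was 0.099 over the 45 genes and 0.15 over all 8261 genes tested. Lists of other translation genes, given below, had median sizes between 0.079 and 0.11, so small changes were not particular to ribosomal protein genes. The log2 change is on the scale of log2(signal + 16), db/db minus db/+, and its standard error (SE) comes from limma.

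The intervals set how large a change could have been missed. For 64 of the 81 probe sets the 95% interval of the log2 change lay within 1.5-fold in either direction (between −0.58 and 0.58). This held for 50.4% of all probe sets tested and for 57.5% of the 749 other probe sets with a mean signal above 1000. Of the 81, 58 were that bright. For 80 of the 81 it lay within 2-fold, and the exception was a probe set of Rpl37a, with an interval from −1.36 to 0.53. At 70 of the 81 the highest of the 5 arrays was less than 1.5 times the lowest. The median of that ratio was 1.25, against 1.49 over all probe sets tested and 1.38 over the 749 other bright ones. The residual SD is the spread between arrays of a genotype on the log2 scale. Its median was 0.13 for ribosomal protein probe sets, 0.19 for all probe sets tested and 0.17 for the 749 other bright ones. Per gene the median was 0.12 for ribosomal protein genes and 0.18 for all genes tested. Mitochondrial ribosome and proteasome genes each had 0.15, elongation and termination genes 0.15, and respiratory chain genes 0.22.

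**Figure D1:**
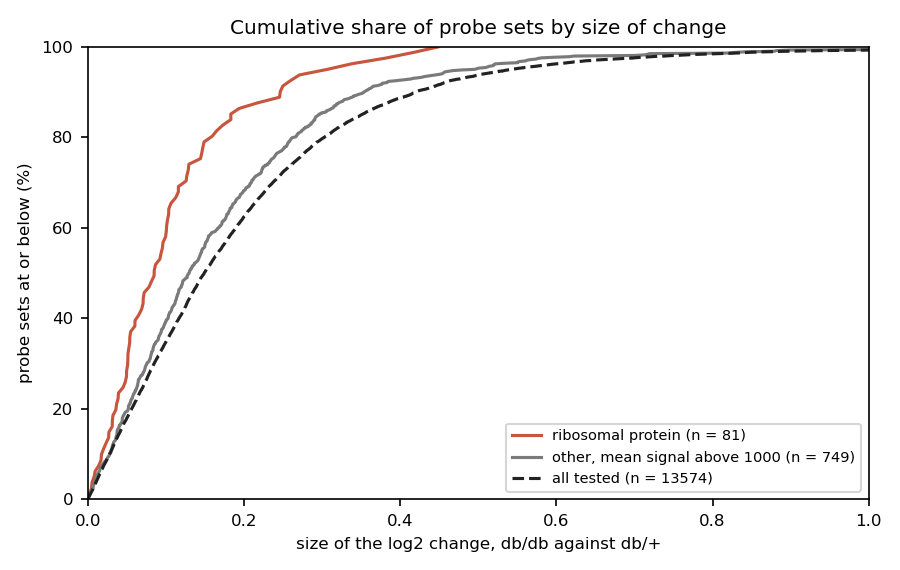
Cumulative share of probe sets (percent, vertical axis) by the size of the log2 change between db/db and db/+ (horizontal axis), for 81 ribosomal protein probe sets, 749 other probe sets with a mean signal above 1000, and all 13574 tested. The ribosomal curve rises first, with a median size of 0.085 against 0.13 and 0.15.

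The stalk of the large subunit, which recruits the elongation factors, was represented by Rplp0 and Rplp2. Rplp0, the scaffold of the stalk and often used as a reference gene, had 2947.5, 3027.7 and 3046.1 in db/db, against 2922.9 and 3070.7 in db/+. All db/db values lay between the db/+ values, and the highest array was 1.05 times the lowest. The log2 change of Rplp0 was 0.0052 (SE 0.15, 95% interval −0.33 to 0.34). Rplp2, an acidic protein bound to that scaffold, had 3452.3, 4231.8 and 3401.7 in db/db and 3447.1 and 3754.6 in db/+, with db/db replicate 2 highest, and a log2 change of 0.031 (SE 0.17). Rplp1 was not analysed here.

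Of the large subunit genes lower in db/db, Rpl14 had the smallest p. It encodes a structural protein of the large subunit. Its probe set had 65.1, 63.7 and 76.8 in db/db, against 85.0 and 103.4 in db/+, so that the genotypes did not overlap. The log2 change was −0.38 (SE 0.16, limma unadjusted p = 0.049, adjusted p = 0.61), and this probe set was dim, with means of 68.5 in db/db and 94.2 in db/+ against a filter of 40.6. Rpl11, which with Rpl5 can bind the p53 regulator Mdm2 when ribosome assembly fails, had 1238.8, 1158.8 and 1291.1 in db/db and 1235.0 and 1603.3 in db/+. Only db/+ replicate 3 stood above the rest, and the log2 change was −0.19 (SE 0.17). The next 4 lower genes had log2 changes between −0.065 and −0.027. They were Rpl7, Rpl8 of the catalytic centre's surroundings, Rpl35 at the exit of the peptide tunnel, and Rpl6.

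Among large subunit genes higher in db/db, Rpl37 came first with 552.7, 583.0 and 585.5 in db/db, against 467.8 and 477.4 in db/+. The genotypes did not overlap, and the log2 change of 0.27 (SE 0.15, 95% interval −0.069 to 0.61, limma adjusted p = 0.71) did not pass. Rpl38, which in mouse embryos favours translation of Hox messengers, had 4538.2, 4139.5 and 3988.9 in db/db and 3563.4 and 3965.1 in db/+, with a difference of 0.16 on the log2 scale (SE 0.16). These groups also did not overlap, with db/db replicate 3 just above db/+ replicate 3. Rpl39, a protein of the tunnel wall, had 130.5, 130.9 and 147.0 in db/db and 128.1 and 114.9 in db/+, and its log2 change was 0.15 (SE 0.15), again without overlap. The other 3 named genes were Rpl19, which bridges the subunits, Rpl7a, and Rpl10a of the movable side stalk, with log2 changes of 0.14, 0.11 and 0.099, and their groups overlapped.

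**Figure D2:**
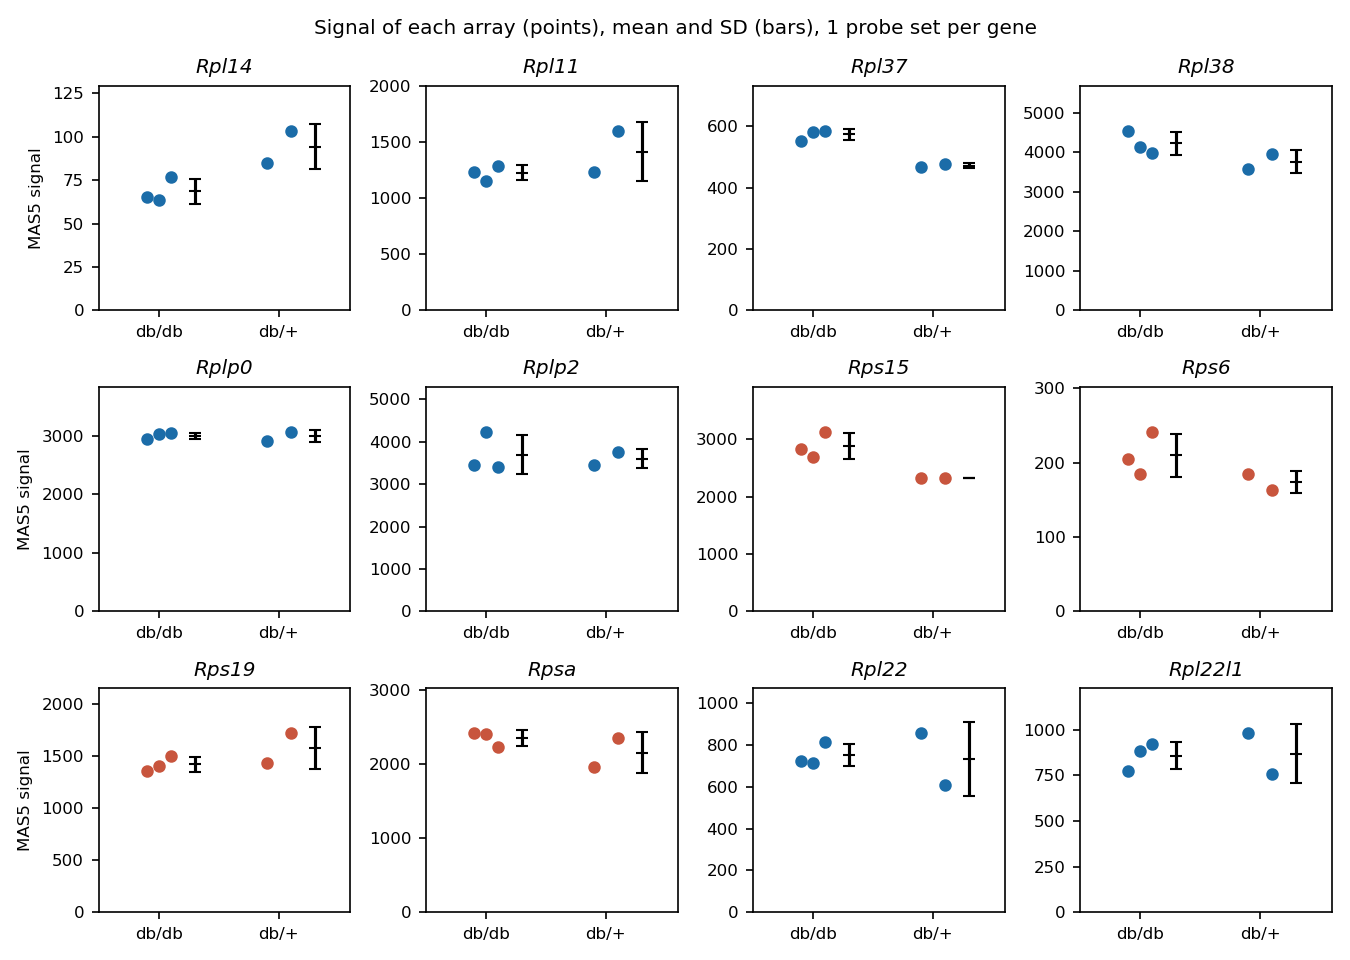
MAS5 signal (vertical axis, linear, from 0) of each array for 12 ribosomal protein genes, db/db left of db/+, blue for the large and red for the small subunit. Bars give the mean and SD (n = 3 and 2). Points of the genotypes are apart for Rpl14, Rpl37, Rpl38 and Rps15 and overlap for the other genes shown.

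In the small subunit the gene with the smallest p was Rps15, a protein of the head near the decoding site. It had 2831.6, 2688.5 and 3130.0 in db/db, against 2321.1 and 2325.4 in db/+. Every db/db array was above both db/+ arrays, and the log2 change was 0.31 (SE 0.15, 95% interval −0.048 to 0.66, limma adjusted p = 0.67). The second probe set of Rps15 had 2188.2, 2001.8 and 2024.1 in db/db and 1952.7 and 2100.6 in db/+, where the genotypes overlapped and the log2 change was 0.031 (SE 0.15). The sizes of the 2 probe sets thus differed, while their intervals shared values.

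Rps6, whose tail is phosphorylated by the S6 kinases when mTOR is active, had 205.0, 184.3 and 241.6 in db/db and 184.6 and 163.5 in db/+, and its log2 difference was 0.25 (SE 0.17, limma adjusted p = 0.79). Its groups overlapped by the narrow margin between db/db replicate 2 and db/+ replicate 2. Rps25, needed for some forms of internal initiation, had 60.4, 63.3 and 74.7 in db/db and 56.1 and 56.2 in db/+, and a log2 difference of 0.18 (SE 0.16), with no overlap. This probe set was dim, against a filter of 40.6. Those of Rps6 and Rpl39 also lay below the mean signal of 1000 that 58 of the 81 exceeded. Rpsa, also known as the laminin receptor precursor, had 2424.5, 2405.3 and 2228.9 in db/db and 1965.4 and 2350.6 in db/+, and a log2 difference of 0.13 (SE 0.16). The db/+ pools of Rpsa lay on either side of db/db replicate 3. Rps24 and Rps3a1 had log2 changes of 0.17 and 0.16 with overlapping groups at their brightest probe set. Rps26, at the messenger's exit, had 2156.1, 2173.3 and 2136.8 in db/db and 2022.3 and 2087.1 in db/+, again apart, with a log2 difference of 0.069 (SE 0.15). It was named after its values were seen.

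By their representative probe set 3 small subunit genes were lower in db/db. Rps19, the gene most often mutated in human Diamond-Blackfan anaemia, had 1357.2, 1401.6 and 1504.8 in db/db and 1436.7 and 1724.4 in db/+, which is −0.15 on the log2 scale (SE 0.16, limma adjusted p = 0.88). Rps2, a protein of the messenger's entry channel, had 3424.3, 3615.7 and 3066.2 in db/db, with 3555.9 and 3575.5 in db/+, and a log2 change of −0.085. Rps9 stood at −0.017. In each of the 3 the groups overlapped.

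**Figure D3:**
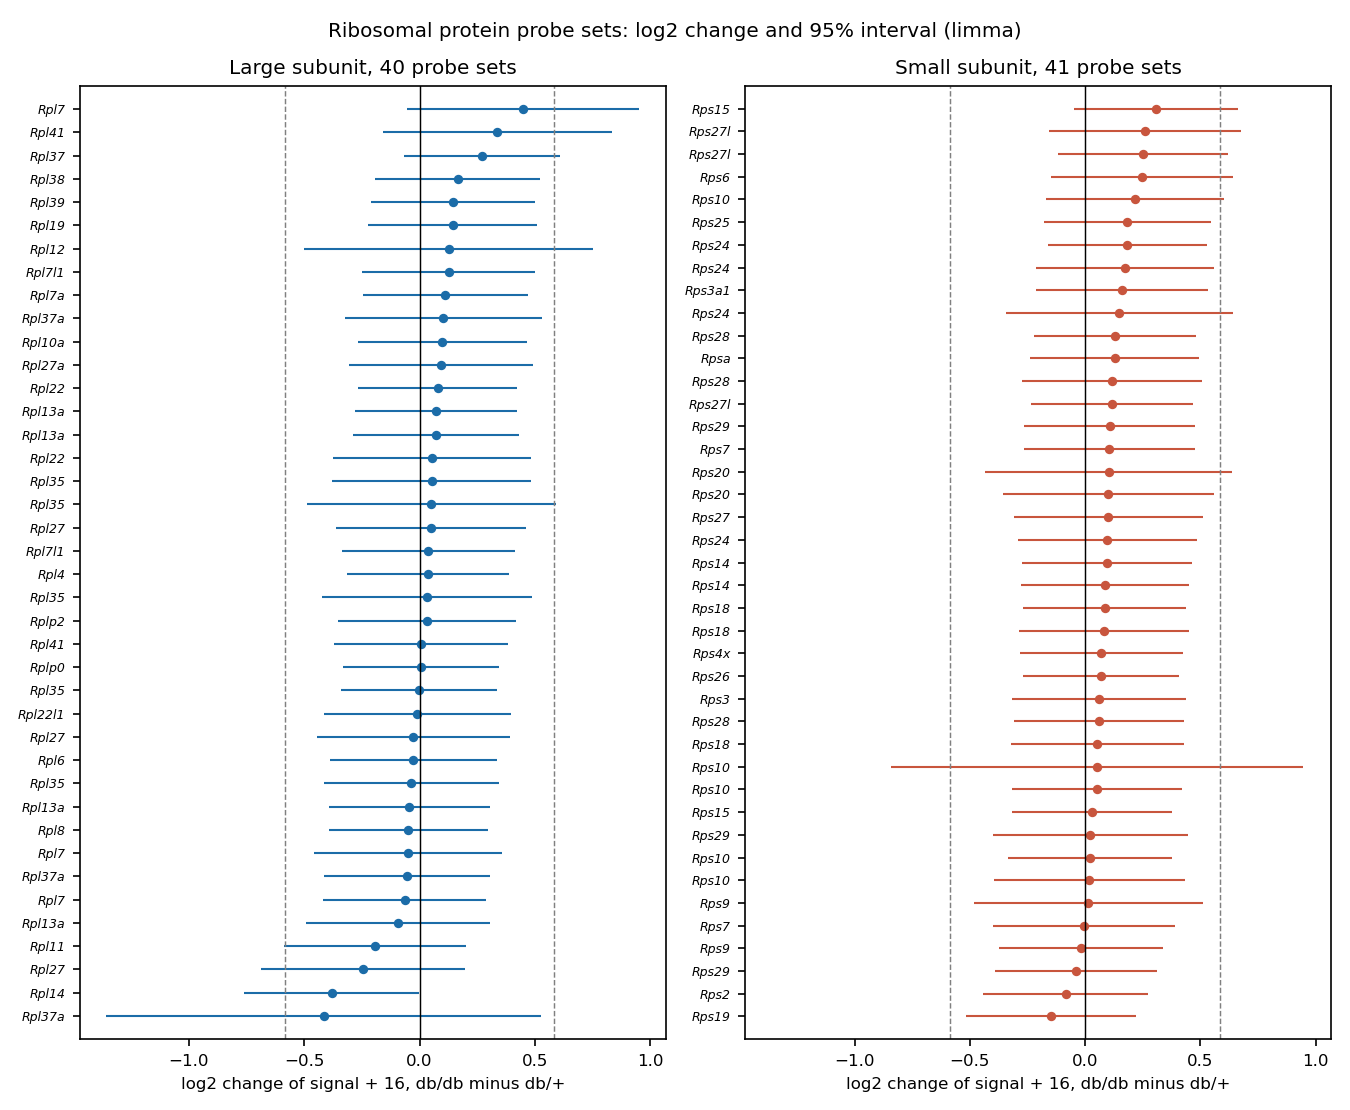
Log2 change of signal + 16, db/db minus db/+ (horizontal axis), with 95% intervals from limma for 40 large and 41 small subunit probe sets, ordered by size and labelled by gene. Dashed lines mark 1.5-fold. Intervals of 80 probe sets include 0, and that of Rpl14 ends just below it.

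Some ribosomal proteins have a second gene, a copy that is used in particular tissues or states. Rpl22, needed in mice mainly for T cell development, had 723.7, 714.2 and 812.0 in db/db and 856.2 and 606.5 in db/+. Rpl22l1, its copy, which rises in mice that lack Rpl22, had 774.0, 880.9 and 918.6 in db/db and 982.1 and 754.9 in db/+. For both genes the db/+ pools were the lowest and the highest of the 5 arrays, and the log2 changes were 0.054 (SE 0.19) and −0.0091 (SE 0.18). Rps27l, a copy of Rps27 that p53 can induce, had 1028.9, 910.8 and 988.4 in db/db and 926.1 and 871.6 in db/+ at its brightest probe set, a difference of 0.12 (log2, SE 0.15). Its other 2 probe sets had log2 changes of 0.25 and 0.26, and at one of them the groups did not overlap. The only probe set of Rps27 with a single symbol was dim (85.0, 101.7 and 74.3 in db/db, 71.3 and 88.5 in db/+) and had a log2 change of 0.10 (SE 0.18). Rpl7l1, a relative of Rpl7 that works in ribosome assembly, had 237.9, 215.0 and 193.8 in db/db and 196.2 and 222.1 in db/+, a difference of 0.039 (log2, SE 0.16).

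Copies tied to other tissues, and both transcribed pseudogenes, had mean signals under the filter. Rpl3l, the form of striated muscle, had 4.9, 4.7 and 2.7 in db/db and 9.3 and 3.8 in db/+, and Rpl39l, the form of testis, had 6.0, 5.3 and 1.5 in db/db and 1.7 and 1.5 in db/+. Rps15a-ps6 stayed at or under 3.0. Rps4l had 6.2, 19.3 and 56.6 in db/db and 48.3 and 38.4 in db/+, with db/db replicate 1 lowest and db/db replicate 3 highest, while Rps4x, its parent on the X chromosome, had 3355.6, 3438.7 and 3014.4 in db/db and 3005.4 and 3213.7 in db/+. These 4 genes had no probe set above the filter. The other 16 probe sets under it belonged to genes that had a brighter one, and means of the 20 lay between 1.30 and 36.4. In a limma fit with no filter 0 of the 101 passed, and 0 had an unadjusted p under 0.05.

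Probe sets of the same gene were compared with each other. Of 19 genes with over 1 tested probe set, 8 had log2 changes of both signs, the median gap between the highest and lowest was 0.11, and in all 19 the 95% intervals shared a value. Rpl37a had the widest gap, with −0.42 (SE 0.41), −0.055 (SE 0.16) and 0.10 (SE 0.19). The first of these had 197.7, 124.6 and 50.3 in db/db and 164.9 and 139.8 in db/+, so db/db replicate 3 alone was low. Rpl7, a large subunit protein, had 0.45 (SE 0.22) at a probe set with 1383.4, 1329.0 and 947.4 in db/db and 1023.9 and 752.3 in db/+, and −0.065 and −0.049 at the other 2. Rpl41, which encodes the shortest of these proteins, had 0.34 (SE 0.22) and 0.0078 (SE 0.16), and for the first of these db/db replicate 1 was highest at 3922.6. The 3 probe sets of Rpl27 had −0.25, −0.026 and 0.049.

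The type of probe set bears on what is read. Of the 81 tested, 37 carried the suffix x_at, which Affymetrix gives to sets with probes that can match other genes, 27 carried a_at for transcripts of 1 gene, 15 had no such letter, and 2 were s_at, shared by genes. Medians of the log2 change were 0.081 for x_at, 0.037 for a_at and 0.13 for plain sets, and 0 passed in each type. RefSeq names 324 pseudogenes of the family, 14 of them after Rpl7a, 13 after Rps19 and 12 each after Rpl19, Rps2 and Rpsa. The share of such loci in the signals was not tested. Over the 90 tested probe sets with several symbols, 0 passed and the median was 0.067. At 17 of the 90 every db/db array was above both db/+ arrays, and at 4 below them. Together these made up 23.3%, against 12.3% of the 81. At a limma unadjusted p under 0.05 there were 2 higher and 1 lower, with a smallest p of 0.0046. The log2 change was above 0 at 60.9% of their 64 large subunit and 69.2% of their 26 small subunit probe sets. Within the 81 these shares were 62.5% and 87.8%.

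By sign alone, more ribosomal protein probe sets were above 0 than below it. The log2 change was above 0 at 25 of 40 large subunit probe sets (62.5%) and at 36 of 41 small subunit probe sets (87.8%). It was above 0 at 52.9% of all probe sets tested. Of the 749 other probe sets with a mean signal above 1000, 57.1% were above 0, with a median log2 change of 0.037. After quantile normalization of the arrays the shares were 50% for the large subunit, 65.9% for the small and 51.5% for all. Without db/db replicate 2 they were 52.5%, 63.4% and 53.6%, so their size rested on that array too. Per gene, the median log2 change was 0.038 over 24 large subunit genes (quartiles −0.027 and 0.11) and 0.10 over 21 small subunit genes (quartiles 0.060 and 0.13), and 0.021 over all 8261 genes tested. Without db/+ replicate 2 the medians were −0.030 for the large subunit and 0.046 for the small, and after quantile normalization they were −0.0040 and 0.031, so the sign of the large subunit median rested on these choices. At 9 of the 81 probe sets every db/db array was above both db/+ arrays (13.0% of all probe sets tested) and at 1 every db/db array was below them (12.0% of all).

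The db/db arrays were not alike in this respect. Relative to each probe set's mean over the 5 arrays, small subunit probe sets had median deviations of 0.072, 0.094 and −0.082 in db/db replicates 1, 2 and 3, and of −0.064 and −0.019 in db/+ replicates 2 and 3. For the large subunit these were 0.013, 0.038 and −0.033 in db/db and −0.051 and 0.013 in db/+. Other probe sets with a mean signal above 1000 had 0.046, 0.054 and −0.036 in db/db and −0.045 and 0.015 in db/+. In each of the 3 sets db/db replicate 2 was highest, and db/db replicate 3 lay below db/+ replicate 3. The Gapdh 3'/5' signal ratio, a sign of RNA quality, was 1.02, 1.07 and 0.838 in db/db replicates 1, 2 and 3. It was 0.920 and 0.940 in db/+ replicates 2 and 3, which puts the arrays in the same order as the small subunit medians. The actin ratio, a sign of the same kind, did not follow that order. It was 1.23, 1.32 and 1.14 in db/db and 1.28 and 1.34 in db/+, with db/+ replicate 3 highest. The part of RNA quality, or of the shift of bright probe sets, in the ribosomal signs was not tested.

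**Figure D4:**
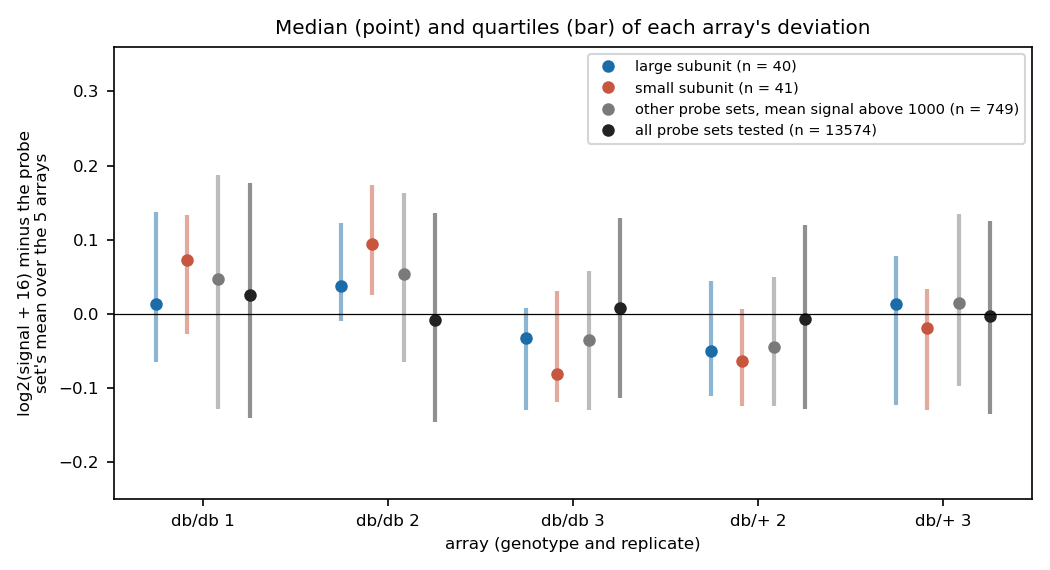
Deviation of log2(signal + 16) from each probe set's mean over the 5 arrays (vertical axis) for each array, db/db left of db/+. Points are medians and bars quartiles for large subunit, small subunit, other bright and all tested probe sets. Small subunit medians are 0.072 and 0.094 in db/db replicates 1 and 2 and −0.082 in db/db replicate 3.

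As a share of the summed signal of an array, the 81 probe sets made up 3.81%, 3.87% and 3.59% in db/db and 3.58% and 3.69% in db/+. The mean was 3.76% ± 0.145 in db/db and 3.64% ± 0.0808 in db/+ (SD, n = 3 and 2), and db/db replicate 3 lay between the db/+ pools. For 12 genes with a pyrimidine run over the start the median log2 change was 0.073, and for 28 genes without one it was 0.071. A gene whose annotated start base was not C or T counted as without a run, and runs took in bases before the start. The split therefore cannot separate messengers with a 5' TOP tract from those without one.

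Genes that make or use ribosomes were read from the same fit. Lists were written for elongation and termination, initiation, ribosome biogenesis, and S6 kinases with mTOR, and 0 of their 10, 33, 74 and 9 tested genes passed in either direction (0.0958% of all probe sets tested). Median log2 changes were 0.0031, −0.016, 0.037 and −0.051. Taken without sign, the medians were 0.11, 0.099, 0.094 and 0.079, near the 0.099 of the ribosomal protein genes. The 95% interval lay within 1.5-fold for 80.0%, 81.8%, 70.3% and 77.8% of the genes in these lists. That share was 84.4% for ribosomal protein genes and 53.0% for all genes tested. Fau, which encodes a small subunit protein fused to a ubiquitin-like part and lies outside the naming rule, had 2847.1, 2937.8 and 2667.0 in db/db and 2620.7 and 2539.5 in db/+, and a log2 difference of 0.13 (SE 0.15). Tpt1, a growth-linked messenger with a 5' TOP tract, had 7203.2, 6962.9 and 5698.6 in db/db and 5545.1 and 5964.2 in db/+, with db/db replicate 3 between the db/+ pools.

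Some of the translation genes with the smallest p in their list had wider gaps, and none passed. Eif4ebp2, a repressor of cap-dependent initiation that mTOR switches off, had 541.7, 540.5 and 343.9 in db/db, against 280.6 and 314.2 in db/+, which is 0.62 on the log2 scale (SE 0.22, limma adjusted p = 0.50). Its groups did not overlap, and db/db replicate 3 was the lowest of its group. Eef1e1, a scaffold of the tRNA synthetase complex, had 101.8, 81.4 and 128.0 in db/db and 130.8 and 171.4 in db/+, which is −0.49 on the log2 scale (SE 0.21). Eif3m, Nol6, Nop2, Tsr2 and Rps6kl1 had log2 changes of −0.37, 0.63, −0.36, −0.34 and 0.32, and Eif4g2, Eef2k, Mlst8 and Tsc2 had 0.24, −0.14, 0.11 and −0.097.

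The mitochondrial ribosome, which makes a few subunits of the respiratory chain, had 0 of 74 genes past the threshold. Of all probe sets tested, 0.0958% passed. The median log2 change of the 74 was −0.0033. Mrps21, one of its small subunit proteins, had 412.5, 263.2 and 325.2 in db/db, against 189.5 and 159.2 in db/+, which is 0.86 on the log2 scale (SE 0.21, limma adjusted p = 0.25), without overlap. Mrpl1 and Mrps6 had 0.43 and −0.42. The proteasome (42 genes) and the respiratory chain (85 genes), other large complexes, had medians of −0.022 and −0.071 and 0 genes past the threshold. Named by the same rule, Psmb6, Psmd8 and Psma7 had −0.34, −0.29 and 0.33, and Atp5k, Ndufs1 and Atp5md had 0.71, −0.41 and −0.38.

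**Figure D5:**
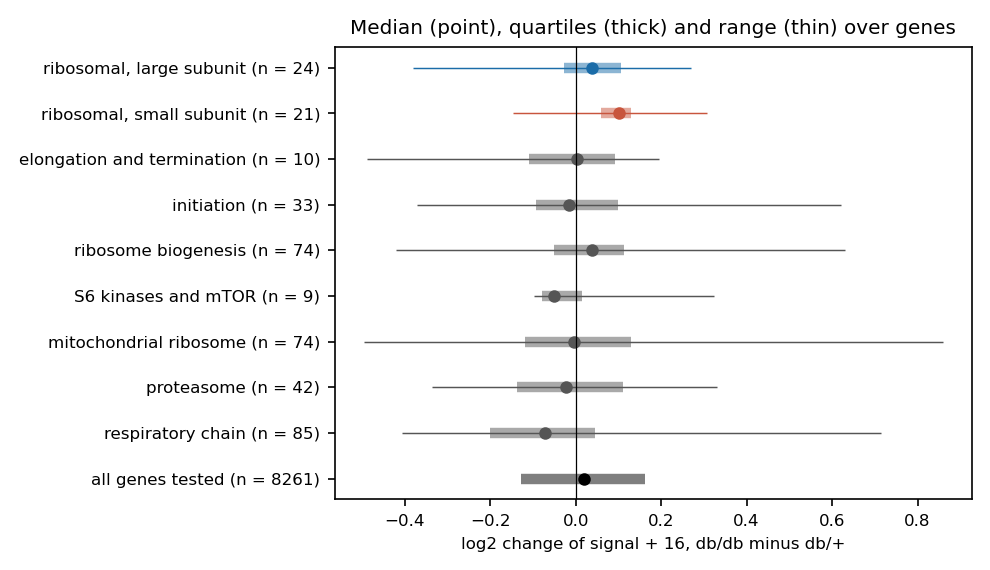
Log2 change of signal + 16, db/db minus db/+ (horizontal axis), over the tested genes of each list: point for the median, thick bar for quartiles, thin line for the range (left out for all genes). Medians of all lists lie between −0.071 and 0.10 on this scale.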

How the data were processed

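Total RNA of aorta pools was hybridised to 5 Affymetrix arrays (3 db/db, 2 db/+), groups being taken from the labels. The deposited intensity values are linear signals, made with MAS5 per the submitters' processing notes (version not given in the sources used here). Scaling was checked on the values: trimmed means were 150.1 on every array. Control probe sets (64 of 22690) were left out. Of the rest, 20380 had 1 gene symbol, 691 several and 1555 none in the platform annotation. All 49 ribosomal genes matched RefSeq GRCm38.p6 by Entrez ID.

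Signals were taken as log2(signal + 16), a pseudocount that understates the change of dim genes. Probe sets with a mean signal above the 40th percentile (40.6) were fitted with limma 3.58.1 (R 4.3.3, lmFit and eBayes), with two-sided p-values adjusted by Benjamini-Hochberg over all 13574, threshold 0.05. The fit had 3 residual degrees of freedom, so the number of arrays limits the precision. A gene was represented by its brightest probe set. The script was tested on simulated data.

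Genes named were, in each subunit, the 6 with the smallest unadjusted p in each direction, the stalk proteins with Rpsa, paralogs with their parents, the 4 genes whose probe sets differed most and 3 genes from each companion list. The members and lists were chosen with earlier results of these data known. Alternatives changed the pseudocount, filter, normalization, fit, threshold, probe sets and arrays used.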

Additional observations from a re-analysis of the deposited data

How the results depend on the processing

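Ribosomal protein probe sets past the threshold numbered 0 under all 19 alternatives, 2 of which were chosen after seeing the data, and the lowest adjusted p was 0.31, with probe sets of several symbols added. The median log2 change of large subunit genes (0.038) was −0.0040 after quantile normalization and 0.074 over plain probe sets only, and ran between −0.030 (without db/+ replicate 2) and 0.085 (without db/+ replicate 3) with 1 array left out. The cause was not tested. That of small subunit genes (0.10) ran between 0.046 and 0.15 with 1 array left out and was 0.031 after quantile normalization and 0.18 over the 5 genes with plain probe sets. Of 32 named ribosomal genes 16 kept their sign throughout. A replicate block gives db/db replicate 1 no partner and so drops it from the contrast. Under that block the medians were 0.018 (large) and 0.068 (small) and 0 ribosomal probe sets passed. The labels do not say what a shared number stands for. Differences of replicate 2 minus 3 correlated between genotypes with r of 0.069 across 13574 probe sets and 0.27 across the 81 ribosomal ones, from 2 shared numbers, too few to settle a pairing.

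Calls over all probe sets (13) numbered 3 with a pseudocount of 1, 37 with 64, 1 with no filter, 35 with a filter at the 60th percentile, 41 with a trended robust prior, 48 with array weights, 22 with the block, 49 at an adjusted p under 0.1, 25 with probe sets averaged per gene, 26 over plain probe sets, 1 without db/+ replicate 2 and 1 without db/+ replicate 3. In these last fits the lone db/+ array is assumed to vary like the db/db arrays, so their low counts say little about stability.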
